A study of Homo sapiens with 8 samples.

Results

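Both control states of SW1990, a human pancreatic adenocarcinoma cell line, were compared with each other across all genes. The comparison took 4 of the 8 libraries of the series: Vector 2 and Vector 3, from cells whose genotype and treatment are labelled vector, and Vehicle 1 and Vehicle 2, from cells labelled vechicle (taken here as vehicle). Of 38637 genes listed, 16019 had enough counts to be tested. The other 4 libraries are the treated groups, cells overexpressing the transcription factor EBF2 (EBF2-OE) and cells given GSK-LSD1, an inhibitor of the H3K4 demethylase KDM1A, labelled 2000 µM. Each treated group has its own control, so the distance between the controls shows how far apart the baselines lie. Neither control group received EBF2 or GSK-LSD1. The vector backbone, how the Vector cells were made for RNA-seq, the vehicle compound, the culture days and the origin of the libraries (separate cultures or not) are not given in the sources used here. The study's general methods use lipid transfection for plasmids, and a legend of the study names a luciferase-labelled SW1990 derivative where the labels name SW1990. Vector, transfection, vehicle and culture therefore cannot be told apart as sources of a difference, and p-values measure only the spread between these libraries.

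Cultured cells adjust their transcripts to nutrients, sterol supply, oxygen, growth factors and the load of protein folding. Shortage of amino acids or misfolded protein in the endoplasmic reticulum (ER) leads, through phosphorylation of eIF2α, to translation of the transcription factor ATF4, which induces amino acid transporters, aminoacyl-tRNA synthetases and the factors DDIT3 and ATF3. Low sterol in the ER membrane releases SREBP2, which induces the enzymes of cholesterol synthesis. Growth factors induce immediate early genes such as EGR1 and FOSB within minutes and for a short time.

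The libraries held between 20828541 and 27054876 counts on genes. Levels are given in CPM, a gene's counts relative to its library's size after TMM scaling, and pairs of values follow the order Vector 2, Vector 3 and Vehicle 1, Vehicle 2. The libraries of a group were no copies of each other, since the chi-square per degree of freedom of their counts was 25.6 for the Vector pair and 6.23 for the Vehicle pair. The Vector libraries lay more than 2-fold apart at 465 tested genes and the Vehicle libraries at 36. Each gene was therefore also set against the Vehicle mean in Vector 2 and Vector 3 separately. EBF2 itself had 1.34 and 1.19 CPM in Vector and 1.21 and 0.873 CPM in Vehicle (adjusted p = 0.537). Of 11 epithelial and ductal markers, KRT7, KRT8, KRT18 and MUC1 were at 123 TPM or more in each library, whereas KRT19, EPCAM and CEACAM6 stayed under 2 TPM in all 4 and CDH1, the gene of E-cadherin, did too. SOX9, a ductal transcription factor, was at 17.5 and 36.8 CPM in Vector and 8.77 and 7.31 CPM in Vehicle (1.76 ± 0.36) and was called higher. Of the 8 tested markers of this list 1 was called higher and 1 lower, with a median log2 fold change of -0.30. The summed level of the 11 markers was 4969 and 4652 TPM in Vector and 7243 and 7131 TPM in Vehicle. Of 6 acinar markers 4 and of 4 islet markers 3 were at 0 in every library, and none had enough counts to be tested.

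Calls rest on edgeR's quasi-likelihood test: a gene counts as higher or lower where its p, adjusted by the method of Benjamini and Hochberg, is under 0.05 and its groups differ more than 1.5-fold. In total 2558 genes were called. Of these, 927 were higher in Vector, 5.79% of the tested genes, and 1631 were lower, 10.2% of the tested genes. In 2080 of the 2558, each Vector library on its own lay more than 1.5-fold from the Vehicle mean in the same direction. This held for 643 of the higher genes (69.4%) and for 1437 of the lower ones (88.1%). The control groups did not overlap at 70.9% of all tested genes, called or not, so a lack of overlap alone says little about a gene. With upper-quartile scaling, which moved the median of all genes to -0.06 on the log2 scale from 0.00, 656 genes were higher and 1845 lower, so that 26.2% instead of 36.2% of the calls were higher. The number of calls rested on the close agreement of the Vehicle pair: without Vehicle 1 only 2 genes were higher and 10 lower, and without Vehicle 2 only 34 and 201, since the spread then came from the Vector pair alone. Without Vector 2 there were 1581 higher and 2678 lower genes, and without Vector 3 there were 1082 and 1843.

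**Figure D1:**
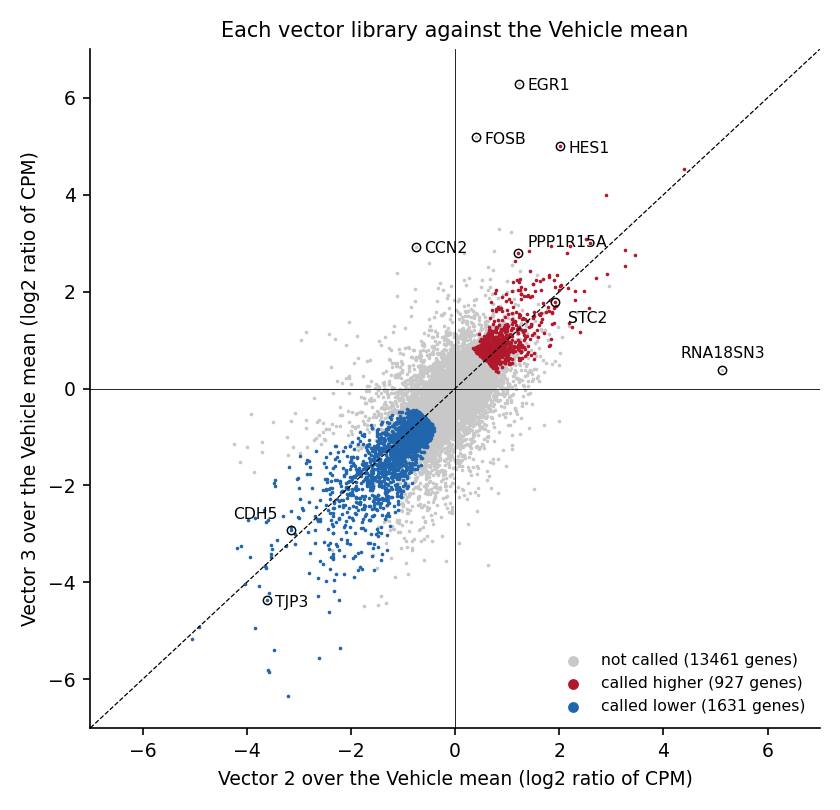
Log2 ratio of CPM of Vector 2 (x axis) and Vector 3 (y axis) to the mean of the Vehicle libraries for the 16019 tested genes, each point 1 gene, with genes called higher in red and lower in blue and the dashed line marking equal ratios. EGR1, FOSB and CCN2 lie far above the line, RNA18SN3 far to its right, while STC2, CDH5 and TJP3 lie close to it.

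Among genes of at least 5 CPM, the largest increases in which each Vector library passed the fold limit were those of HES1, ARFGEF3, FAM83B, AREG, PPP1R15A, MALL, ADM2, MIOX, CHAC1 and ATF3. HES1, a transcriptional repressor induced by Notch signalling, was at 16.2 and 128 CPM in Vector and 4.39 and 3.53 CPM in Vehicle, a log2 fold change of 4.19 ± 0.99 (SE) with an adjusted p of 0.0332. Both Vector libraries exceeded both Vehicle libraries, but Vector 3 was far higher than Vector 2. ARFGEF3, which encodes a protein related to ARF exchange factors, was more even at 4.63 and 6.14 against 0.724 and 0.727 CPM (log2 fold change 2.88 ± 0.28). FAM83B, a membrane-proximal mediator of EGF receptor and RAS signalling, had 14.02 and 22.02 against 3.02 and 3.24 CPM (2.53 ± 0.26). MALL, a proteolipid of membrane rafts, had 18.4 and 9.81 against 2.78 and 3.35 CPM (2.2 ± 0.34) and was higher in Vector 2. ADM2, a peptide hormone of the calcitonin family, had 8.63 and 11.4 against 1.93 and 2.44 CPM. Its locus shares 2450 bases with that of MIOX on the same strand, so their counts (4.63 and 6.57 against 1.21 and 1.38 CPM for MIOX) may not be separate measurements. AREG, PPP1R15A, CHAC1 and ATF3 are described with their pathways.

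The largest decreases by the same rule were LOC112268186, LRRC26, TPGS1, HRURF, FAM229A, TJP3, ALPG, TNFSF15, SLC6A12 and TMEM160. TJP3, a tight junction scaffold, fell to 3.195 and 1.88 CPM in Vector from 43.7 and 35.9 CPM in Vehicle, with a log2 fold change of -3.98 ± 0.26 and an adjusted p of 0.00577. ALPG, a germ cell alkaline phosphatase, fell to 2.77 and 2.902 from 35.4 and 29.7 CPM (-3.52 ± 0.16). For both genes the Vector libraries lay far below both Vehicle libraries, of which Vehicle 1 was the higher. SLC6A12, a betaine and GABA transporter, had 0.715 and 1.79 against 14.1 and 9.97 CPM, and the cytokine gene TNFSF15 had 0.954 and 0.171 against 5.75 and 4.87 CPM. In 6 of the 10 genes the Vehicle libraries themselves lay far apart, with Vehicle 1 the higher: LRRC26 was at 17.5 and 3.02 CPM, TMEM160 at 34.1 and 6.84 CPM, FAM229A at 8.09 and 2.18 CPM, HRURF at 16.7 and 5.13 CPM, LOC112268186 at 11.02 and 3.93 CPM and TPGS1 at 28.97 and 14.8 CPM. The GC content was 74.7% for LRRC26, 72.2% for TMEM160 and 75.4% for HRURF. LRRC26 and TMEM160 were no longer called after correction for GC content (adjusted p = 0.0566 and 0.0758). HRURF overlaps HR by 553 bases on the same strand and FAM229A overlaps TSSK3 by 1216 bases on the other, so their reads cannot be fully separated either.

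Several genes were near silent in 1 control state. GH1, which encodes growth hormone, had 21 and 26 counts in Vector and 0 and 0 in Vehicle, at least 18.5-fold higher when 3 counts over the Vehicle pair are taken as the floor. HLF, a circadian transcription factor of the PAR bZIP family, had 24 and 20 counts against 1 and 3, a ratio of 12.97 with a 95% counting interval of 4.72 to 49.7. HCG4B (19 and 14 against 2 and 2 counts), SH2D1B (13 and 25 against 2 and 3) and CASC15 (14 and 11 against 3 and 1) were called higher too. In the other direction KRT5, a basal epithelial keratin, had 0 and 0 counts in Vector and 21 and 57 in Vehicle, at least 22.1-fold lower. CFTR, the chloride channel of pancreatic ducts, had 1 and 2 counts against 42 and 33, a ratio of 21.2 (6.98 to 105), and FREM2, an extracellular matrix protein, had 2 and 3 against 37 and 42. ECEL1P2 (1 and 3 against 42 and 44), LOC105376123 (2 and 3 against 41 and 44) and RAET1E-AS1 (2 and 2 against 213 and 28) behaved alike, although RAET1E-AS1 differed strongly within the Vehicle pair. These intervals cover counting error only. With at most 3 counts in each Vector library, 69 genes had 10 or more in both Vehicle libraries, and 9 genes showed the opposite.

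Genes of ATF4 and the amino acid response were among the groups with most calls, all of them higher in Vector. Of its 38 tested members 21 were higher in Vector and 0 lower, and the median log2 fold change was 0.68 beside 0.00 over all tested genes. The medians were 0.66 in Vector 2 and 0.69 in Vector 3. ASNS, which makes asparagine, was at 38.2 and 60.98 CPM in Vector and 13.1 and 12.7 CPM in Vehicle (log2 fold change 1.94 ± 0.23, adjusted p = 0.00917). CZ1P-ASNS overlaps it on the same strand, so their reads cannot be fully separated. STC2, a secreted glycoprotein of the stress response, had 164 and 149.7 against 43.9 and 42.6 CPM (1.86 ± 0.09), and the Vector libraries were nearly equal. DDIT3, the pro-apoptotic factor CHOP, had 24.8 and 24.96 against 6.64 and 7.35 CPM (1.83 ± 0.13). ATF4 is the factor at the head of this pathway and is regulated mainly at translation. Its own transcript was at 252 and 377 against 236 and 234 CPM and did not pass the test (adjusted p = 0.141).

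The amino acid response genes that rose included transporters, synthetases and enzymes of serine synthesis. SLC7A11, the cystine importer, had 85.2 and 167 against 36.9 and 35.97 CPM (1.79 ± 0.31). CHAC1, which degrades glutathione, had 7.201 and 9.17 against 1.49 and 2.29 CPM (2.11 ± 0.28). ATF3, a repressor induced by stress, had 61.3 and 171 against 28.8 and 26.2 CPM (2.08 ± 0.46). All 3 were higher in both Vector libraries, with Vector 3 above Vector 2. Among the aminoacyl-tRNA synthetases, MARS1 (1.03), WARS1 (0.89), CARS1 (0.85), YARS1 (0.79) and GARS1 (0.68, log2 fold changes) were called, while AARS1 (0.53), NARS1 (0.44), EPRS1 (0.41) and SARS1 (0.34) stayed under the fold limit. PSAT1 and PSPH, of serine synthesis, had log2 fold changes of 1.06 and 0.85, and the mitochondrial SHMT2 had 0.67. DDIT4, an inhibitor of mTORC1, had 1480.0 and 271 CPM in Vector and 936 and 955 CPM in Vehicle, so that the Vehicle pair lay between the Vector libraries. After correction for GC content 22 members were called higher. Without Vector 2 the counts were 25 higher and 2 lower, and without Vector 3 they were 21 and 0.

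Promoter windows of called genes are shown because many ATF4 targets carry a known response element. The ATF4 element core, TGATGNAA on either strand, was present in the RefSeq window (from 250 bases before to 50 after the start) of 7 of the 16 called members that had a window, of 2 of the 16 other tested members, and of 1.74% of the 11926 tested genes with a window. It is found in ATF3, ASNS, CHAC1, SLC3A2, SLC7A1, MARS1 and CARS1. The ER stress response element, CCAAT followed after a spacer of 9 bases by CCACG, on either strand, was present in 3 of 11 called members of the ER group described next (HSPA5, HSP90B1 and XBP1), in 3 of the 17 others and in 0.109% of tested genes. A match is a description of letters and not of binding. The windows of the following 5 genes are given 5′ to 3′ on the gene's strand, with the element in capitals (GRCh38.p14).
ASNS, chr7:97872359-97872658, minus strand: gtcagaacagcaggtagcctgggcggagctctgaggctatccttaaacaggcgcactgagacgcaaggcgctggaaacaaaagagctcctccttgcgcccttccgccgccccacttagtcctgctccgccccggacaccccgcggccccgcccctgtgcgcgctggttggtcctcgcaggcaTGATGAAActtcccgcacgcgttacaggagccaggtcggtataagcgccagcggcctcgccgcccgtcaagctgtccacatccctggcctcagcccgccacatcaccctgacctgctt
CHAC1, chr15:40953221-40953520, plus strand: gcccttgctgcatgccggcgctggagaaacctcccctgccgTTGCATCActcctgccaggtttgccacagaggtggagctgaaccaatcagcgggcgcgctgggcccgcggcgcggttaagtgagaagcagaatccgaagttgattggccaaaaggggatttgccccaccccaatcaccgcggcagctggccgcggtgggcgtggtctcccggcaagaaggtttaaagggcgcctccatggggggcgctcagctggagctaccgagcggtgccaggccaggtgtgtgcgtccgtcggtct
ATF3, chr1:212565157-212565456, plus strand: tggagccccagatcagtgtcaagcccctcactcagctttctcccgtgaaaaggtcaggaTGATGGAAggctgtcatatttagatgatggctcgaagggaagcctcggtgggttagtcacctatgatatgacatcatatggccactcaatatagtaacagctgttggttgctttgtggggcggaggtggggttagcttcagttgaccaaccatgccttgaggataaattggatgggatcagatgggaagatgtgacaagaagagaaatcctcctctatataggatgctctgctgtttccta
HSPA5, chr9:125241294-125241593, minus strand: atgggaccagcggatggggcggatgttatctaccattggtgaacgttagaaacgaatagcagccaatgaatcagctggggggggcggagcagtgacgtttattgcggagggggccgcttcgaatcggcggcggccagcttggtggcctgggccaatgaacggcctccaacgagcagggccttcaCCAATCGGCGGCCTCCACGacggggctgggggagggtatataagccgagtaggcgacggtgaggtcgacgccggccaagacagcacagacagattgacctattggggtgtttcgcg
HSP90B1, chr12:103930160-103930459, plus strand: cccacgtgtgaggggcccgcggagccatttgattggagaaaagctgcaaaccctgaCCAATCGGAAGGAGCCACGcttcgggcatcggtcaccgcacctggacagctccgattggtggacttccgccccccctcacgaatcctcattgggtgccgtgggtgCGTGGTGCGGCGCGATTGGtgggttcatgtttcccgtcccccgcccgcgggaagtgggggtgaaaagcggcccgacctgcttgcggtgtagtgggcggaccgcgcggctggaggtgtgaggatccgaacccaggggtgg
In ASNS and HSPA5 the element begins 68 and 66 bases before the start, and the window of HSP90B1 holds 2 matches of the ER element, 1 on each strand.

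ER chaperones and genes of the unfolded protein response were also higher in Vector, 12 of 32 tested members, with 1 lower. The median log2 fold change was 0.55, with 0.49 in Vector 2 and 0.58 in Vector 3. HSPA5, the chaperone BiP of the ER lumen (chr9:125234853-125241343 on the minus strand in hg38), was at 1532 and 1532 CPM in Vector and 593 and 582 CPM in Vehicle, that is 1532 ± 0.143 against 587 ± 7.63 (mean ± SD, n = 2 each). Its log2 fold change was 1.38 ± 0.06 with an adjusted p of 0.00577, and both Vector libraries gave 1.38. PPP1R15A, the phosphatase subunit GADD34 that reverses eIF2α phosphorylation, had 70.2 and 213 against 28.7 and 32.4 CPM (2.21 ± 0.50), with Vector 3 far above Vector 2. The co-chaperones DNAJC3 (70.4 and 79.6 against 40.8 and 41.3 CPM) and DNAJB9 (11.6 and 16.8 against 8.17 and 6.87 CPM) rose as well. HSP90B1, PDIA6, HYOU1, HERPUD1 and XBP1 had log2 fold changes between 0.69 and 0.81. CALR (0.54), CANX (0.51) and PDIA4 (0.47) had adjusted p-values under 0.05 but stayed below the fold limit. DERL3 was the member that fell, to 25.6 and 26.7 from 37.7 and 43.2 CPM. After GC correction 6 members were higher and 0 lower, with a median of 0.49.

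In the heat shock group 6 of 23 members rose, 1 fell and the median was 0.47. The share called was 30.4%, beside 15.97% of all tested genes. HSP90AA1, the inducible cytosolic HSP90, had 2271 and 2379 CPM in Vector and 1231 and 1218 CPM in Vehicle (0.92 ± 0.06), among the 5 most abundant genes called higher. HSPA4L (0.78), CHORDC1 (0.77) and the mitochondrial pair HSPD1 (0.65) and HSPE1 (0.66) were called too. The classical heat-inducible HSPA1A was at 101 and 97.8 against 127 and 126 CPM (-0.34, adjusted p = 0.0257, below the fold limit), and DNAJB1 had a log2 fold change of -0.05. HSPB1, a small heat shock protein, fell to 225 and 196 from 475 and 328 CPM, with the Vehicle pair apart. Only 3 members were higher after GC correction, where HSPB1 lay under the fold limit (log2 fold change -0.49, adjusted p = 0.0484). Without Vector 2 the counts were 10 higher and 1 lower, without Vector 3 they were 5 and 2, without Vehicle 1 they were 0 and 0, and without Vehicle 2 they were 1 and 1.

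**Figure D2:**
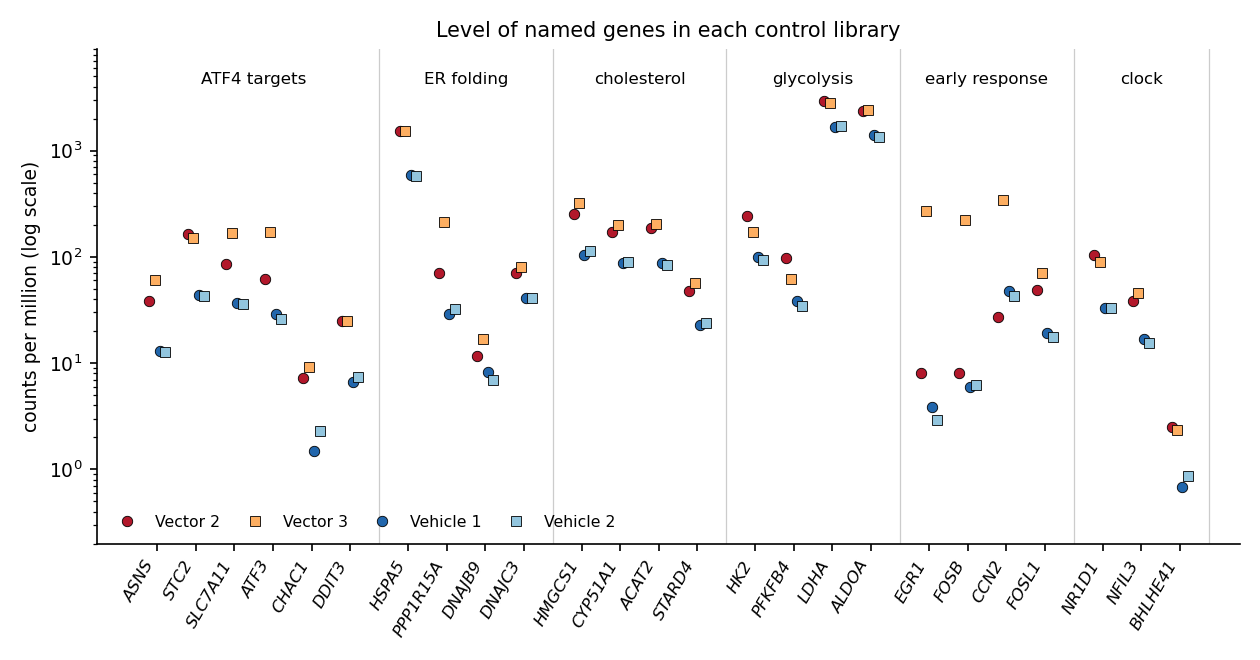
Level in CPM (log axis) of genes of 6 groups in Vector 2, Vector 3, Vehicle 1 and Vehicle 2, each symbol 1 library. HSPA5, STC2 and DDIT3 are nearly equal in the Vector libraries and above the Vehicle libraries, whereas EGR1, FOSB and CCN2 are high in Vector 3 alone.

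Cholesterol synthesis and uptake genes were higher in Vector in 16 of 29 tested members and lower in 1, with a median of 0.61 (0.59 in Vector 2 and 0.67 in Vector 3). HMGCS1, the first committed enzyme of the pathway, had 254 and 319 against 105 and 113 CPM (1.39 ± 0.12, adjusted p = 0.00693). Downstream, CYP51A1 (1.06), IDI1 (0.91), SQLE (0.90), DHCR7 (0.89), MSMO1 (0.87) and EBP (0.81) rose. Enzymes from the start to late steps of the route were thus among the called genes. STARD4, a carrier of cholesterol in the cytosol, was at 47.3 and 56.3 against 23.01 and 24.04 CPM (1.14 ± 0.12). ACAT2, the cytosolic thiolase that supplies acetoacetyl-CoA, had 186 and 204 against 87.3 and 84.3 CPM (1.18 ± 0.08), though TCP1 overlaps 615 bases of it on the other strand. The single member that fell was ABCG1, which exports cholesterol, at 14.2 and 13.1 against 28.9 and 22.7 CPM (-0.92 ± 0.16).

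Regulators of this pathway were compared as well, and SREBF2, SCAP and INSIG1 did not pass the test. SREBF2, which encodes SREBP2, had 256 and 266 CPM in Vector and 289 and 279.9 CPM in Vehicle (adjusted p = 0.214), and the log2 fold changes were -0.17 for SCAP, its escort, and 0.20 for INSIG1, its ER anchor. The group's counts were 16 higher and 1 lower without Vector 2, without Vector 3 and after GC correction, but 0 and 0 without Vehicle 1 and 3 and 0 without Vehicle 2. A sterol regulatory element core, TCACNCCAC on either strand, was found in 0 of the 12 called members with a promoter window, in 1 of 9 other members and in 1.11% of tested genes. Of 24 fatty acid genes 4 rose and 2 fell, a share of 25% beside 15.97% of all tested genes. SCD, the stearoyl-CoA desaturase, rose to 1459 and 1546 CPM from 729.7 and 728 CPM (1.04 ± 0.07, adjusted p = 0.00577), with both libraries of each group nearly equal. The acetate and acyl-CoA synthetases ACSS2 (88.7 and 80.4 against 54.5 and 49.2 CPM) and ACSL1 (12.2 and 12.8 against 7.85 and 7.38 CPM) rose, and so did ME1, malic enzyme (0.69). SCD5 (-0.76) and MLXIPL (-0.89), the carbohydrate response factor ChREBP, fell. After GC correction MLXIPL (adjusted p = 0.0962) and ME1 (0.52, under the fold limit) were not called, which left 3 higher and 1 lower. FASN, the fatty acid synthase, was at 1334 and 1499.5 against 1519 and 1387 CPM (adjusted p = 0.775).

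In the glycolysis and hypoxia group 14 of 42 members rose and 0 fell, with a median of 0.59. Here Vector 2 was the higher library, with a median of 0.70 against 0.41 in Vector 3. HK2, the hexokinase that starts glycolysis, was at 244 and 169.8 against 101 and 93.4 CPM (1.09 ± 0.18), and PFKFB4, which makes the activator fructose 2,6-bisphosphate, at 96.8 and 61.5 against 38.3 and 34.6 CPM (1.12 ± 0.22). LDHA, lactate dehydrogenase, had 2961 and 2832 against 1674 and 1707 CPM (0.78 ± 0.06) and ALDOA, aldolase, 2385 and 2402 against 1388 and 1343 CPM (0.81 ± 0.06). Both are among the 5 most abundant genes called higher, as is LOC112694756, which spans 6136 bases of ALDOA on the same strand and shares its reads. ERO1A (1.04), LOX (1.1), CA9 (0.97) and SLC2A1 (0.83), hypoxia-induced genes of oxidative folding, collagen cross-linking, pH control and glucose uptake, were called and passed the fold limit in both Vector libraries. GAPDH had a log2 fold change of 0.29 and stayed under the fold limit. Other hypoxia genes differed mostly between the Vector libraries: ANGPTL4 had 76.1 and 11.9 CPM in Vector and 18.9 and 18.9 CPM in Vehicle, NDRG1 had 1117 and 516 against 398 and 387 CPM, and neither passed the test. Without Vector 3, 28 members were higher and 0 lower, and without Vector 2, 11 were higher and 2 lower.

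Immediate early and serum response genes separated the Vector libraries. Of 29 tested members 6 rose and 1 fell, and the median was 0.61. The share called was 24.1%, beside 15.97% of all tested genes. EGR1, a zinc finger factor, was at 8.06 CPM in Vector 2 and 271 CPM in Vector 3 against 3.903 and 2.95 CPM in Vehicle, and its log2 fold change of 5.35 ± 1.59 did not pass the test (adjusted p = 0.0577). FOSB had 8.06 and 223 against 5.95 and 6.26 CPM (adjusted p = 0.07603). CCN2, a matricellular target of YAP and serum, had 26.9 and 344 against 48.1 and 42.4 CPM (adjusted p = 0.188) and without Vector 3 its log2 fold change was -0.75. These genes were high in Vector 3, while Vector 2 lay much closer to the Vehicle libraries. CCN1 (71.7 and 612 against 108 and 96.1 CPM) and FOS (47.02 and 199 against 26.8 and 28.9 CPM) showed the same order. In contrast JUNB (241 and 44.8 against 301 and 225 CPM), BTG2 (26.8 and 5.42 against 24.3 and 26.9 CPM) and MYC (425 and 190.2 against 455 and 451 CPM) were lowest in Vector 3, and MYC did not pass the test (adjusted p = 0.273). The EBF2-OE libraries, also numbered 2 and 3, had the same order for EGR1 (3.67 and 180 CPM), FOSB (6.44 and 284 CPM), CCN2 (24.8 and 202 CPM) and MYC (381 and 198 CPM). JUNB was nearly equal there (114.9 and 112.9 CPM). The source of this difference between libraries numbered 2 and 3 was not tested. Members that were called higher and passed the fold limit in each Vector library were FOSL1, an AP-1 subunit, at 48.6 and 70.8 against 19.2 and 17.7 CPM (1.7 ± 0.19), KLF6 at 31.5 and 57.7 against 17.5 and 18.2 CPM (1.32 ± 0.28), KLF10 and ATF3. JUND, another AP-1 subunit, fell to 47.4 and 44.04 CPM from 253 and 119.8 CPM (-2.03 ± 0.35), and its Vehicle libraries differed by more than its Vector libraries. Leaving out Vector 2 gave 13 higher and 5 lower members, and leaving out Vector 3 gave 11 and 4.

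Feedback inhibitors and ligands of the ERK pathway moved in a few members. DUSP4, DUSP5 and DUSP6, phosphatases of the MAP kinases, had log2 fold changes of 1.41, 1.54 and 1.18. With FOSL1 they were the 4 of 19 feedback genes called higher (0 lower, median 0.51), 21.1% beside 15.97% of all tested genes. DUSP4 had 19.8 and 15.5 against 6.397 and 6.91 CPM, without overlap. Without Vector 2 there were 7 and without Vector 3 there were 9 such genes. Among 10 tested genes of the EGF receptor family and its ligands 4 rose and 1 fell. EGFR was at 428 and 418 against 269 and 282 CPM (0.62 ± 0.07), its inhibitor ERRFI1 at 77.5 and 76.8 against 28.2 and 26.1 CPM (1.51 ± 0.09, adjusted p = 0.00577) and its ligand AREG at 5.05 and 13.5 against 2.05 and 1.67 CPM (2.32 ± 0.50). LRIG1, a negative regulator of the receptor, rose by 0.95 on the log2 scale. ERBB3, a partner receptor with weak kinase activity, fell to 1.76 and 1.54 from 6.52 and 7.89 CPM (-2.13 ± 0.23). EGFR, AREG, ERRFI1 and LRIG1 were thus called in the same direction, opposite to ERBB3. The list as a whole had no such direction, since 5 of its 10 tested members had a log2 fold change above 0 and the median was 0.08. After GC correction 3 members were called higher and 1 lower. In the Notch list HES1 and HEY1 (0.63) rose, while HES4 (-1.41) and NOTCH3 (-0.63) fell. These were 21.1% of its 19 tested members, beside 15.97% of all tested genes called. After GC correction HES4 did not pass the test (adjusted p = 0.725) and HEY1 (0.56) and NOTCH3 (-0.28) lay under the fold limit.

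Genes of the circadian clock and its output were higher in 8 of 18 tested members and lower in 2 (median 0.60). NR1D1, the repressor REV-ERBα, was at 105 and 89.8 against 32.7 and 33.4 CPM (1.56 ± 0.11, adjusted p = 0.00577). NFIL3, a repressor of D-box genes, had 38.4 and 46.2 against 16.7 and 15.6 CPM (1.39 ± 0.13), and BHLHE41, the repressor DEC2, had 2.48 and 2.35 against 0.684 and 0.873 CPM (1.62 ± 0.29). PER1 (0.71), CRY2 (0.79), NR1D2 (0.75), CLOCK (0.63) and HLF made up the rest of the higher genes. DBP, an activator of D-box genes, fell to 9.54 and 6.102 from 18.2 and 14.9 CPM (-1.09 ± 0.24). BMAL1, listed as ARNTL, had 21.98 and 22.4 against 19.2 and 17.97 CPM (adjusted p = 0.134). THRA overlaps 1075 bases of NR1D1 on the other strand, and reads of the pair cannot be told apart there.

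Polyamine genes rose in 3 of 15 tested members and fell in 0 (median 0.21), a share called of 20% beside 15.97% of all tested genes. ODC1, the rate-limiting ornithine decarboxylase, had 128 and 163 against 59.5 and 60.5 CPM (1.28 ± 0.13), SRM, the spermidine synthase, 173 and 170.4 against 90.8 and 89.00 CPM (0.93 ± 0.07), and SMOX, a spermine oxidase of the same flavin amine oxidase fold as KDM1A, 61.7 and 55.5 against 38.6 and 35.6 CPM (0.66 ± 0.10). Among iron genes HMOX1, heme oxygenase, rose to 60.5 and 80.5 from 26.5 and 27.4 CPM (1.39 ± 0.15), as did SLC39A14 (0.69). CYBRD1 (-0.67) and FBXL5 (-0.61) fell, and the share called was 28.6% of the 14 tested.

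Chromatin enzymes that the study follows were compared next, since a change between controls sets their baseline. Of 31 tested members of the EBF family and the H3K4 enzymes 4 rose and 1 fell, a share of 16.1% that is close to the 15.97% of all tested genes. KMT2D, an H3K4 methyltransferase that deposits H3K4me1 (chr12:49018975-49060884 on the minus strand), was at 258 and 271 CPM in Vector and 154 and 152 CPM in Vehicle, a log2 fold change of 0.79 ± 0.07 with an adjusted p of 0.00693. Its paralog KMT2C had 91.5 and 101 against 53.4 and 54.2 CPM (0.84 ± 0.09). SETD7 (0.66) and KDM6A (0.59) were called as well, but not after GC correction. KDM1A, the target of GSK-LSD1, was at 190.0 and 191 against 265 and 231 CPM (-0.38 ± 0.09, adjusted p = 0.0328), with a change below the fold limit. HMG20B, a subunit of the KDM1A complex, fell to 784 and 692 from 1234 and 1071 CPM (-0.64) and was not called after GC correction (adjusted p = 0.341).

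KLLN, which encodes a nuclear DNA-binding protein (chr10:87859158-87863533 on the minus strand), was at 5.29 and 6.53 CPM in Vector and 15.2 and 16.99 CPM in Vehicle. The means were 5.91 ± 0.874 and 16.1 ± 1.26 CPM (SD, n = 2 each), a log2 fold change of -1.44 ± 0.17 with an adjusted p of 0.00901, and the groups did not overlap. KLLN stands in a heat map of these libraries together with other genes, a list chosen on these samples and therefore no independent evidence of a direction. Of the 17 genes tested in that list, 4 were lower in Vector than in Vehicle and 0 higher, with a median of -1.44. ANXA9, an annexin, had 5.34 and 4.69 against 13.2 and 12.9 CPM (-1.38 ± 0.16), and PRSS36, a serine protease, had 2.34 and 1.88 against 4.18 and 3.86 CPM (-0.93 ± 0.23), which was lost after GC correction (adjusted p = 0.251). UGT1A6 was called (2 and 6 against 16 and 22 counts), but the UGT1A genes are alternative first exons of 1 locus that share their 3′ exons, so the 8 UGT1A members are not separate measurements. EPHB2 (0.19), TNFRSF10C (0.41), TMEM52 (-0.21) and PRSS22 (-0.28) did not pass the test.

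CDKN1A, the cell cycle inhibitor p21, was at 370.0 and 235 against 157 and 156 CPM (0.95 ± 0.21, adjusted p = 0.0274), higher in Vector 2 than in Vector 3. SERTAD1, a cofactor of E2F, had 37.5 and 30.4 against 10.7 and 9.78 CPM (1.73 ± 0.15), PLK3 0.99 and MDM2 0.60 on the log2 scale. CD82, a tetraspanin that suppresses metastasis, fell to 34.3 and 38.6 from 81.1 and 80.02 CPM (-1.14 ± 0.10), as did DDB2, a DNA repair factor (-0.69).

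Keratins and markers of pancreatic cancer subtypes moved in both directions. KRT18 fell to 955 and 873 from 1852 and 1781 CPM (-0.99 ± 0.07), and its partner KRT8, which overlaps it by 1006 bases on the other strand, had 1888 and 1889 against 2688 and 2599.9 CPM (-0.49, below the fold limit). KRT7 was at 899 and 838 against 884 and 869.8 CPM (adjusted p = 0.901). KRT17 and KRT16, keratins of stressed and basal-like epithelium, rose to 391 and 529 from 147 and 135 CPM (1.71 ± 0.15) and to 5.198 and 8.24 from 1.73 and 1.89 CPM (1.89 ± 0.29). KRT23 (0.143 and 0.128 against 1.09 and 1.56 CPM) and KRT5 fell. Of 15 basal-like markers 5 rose (KRT17, AREG, SLC2A1, S100A2 and BCAR3) and 4 fell (KRT5, LY6D, UCA1 and CTSV), and of 18 classical markers 1 rose (MUC13, 1.33) and 2 fell (ERBB3 and MUC5B, -1.02). The shares called were 60% of the basal-like and 16.7% of the classical markers, beside 15.97% of all tested genes. MUC5B was not called after GC correction (adjusted p = 0.189).

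Among genes of epithelial-mesenchymal change and matrix 8 of 52 rose and 3 fell, with a median of 0.03. The share called was 21.2%, beside 15.97% of all tested genes. SNAI2 (12.2 and 21.8 against 5.51 and 4.58 CPM, 1.76 ± 0.31) and SNAI1 (37.01 and 40.4 against 17.1 and 17.9 CPM, 1.14 ± 0.11), repressors of E-cadherin, rose with ZEB2 (0.85). The collagen receptor subunit ITGA2 rose to 124 and 70.02 from 26.2 and 28.3 CPM (1.83 ± 0.27), and the protease inhibitor SERPINE2 rose by 1.53 on the log2 scale. TWIST1 (-0.83), PLAU (-1.12) and TIMP3 (-0.68) fell. VIM and CDH2 did not pass the test (-0.15 and -0.27). WNT5A, a noncanonical Wnt ligand, fell to 49.9 and 85.4 from 159.8 and 142 CPM (-1.15 ± 0.25), with FZD2 (-1.11), 2 of 22 tested Wnt genes (9.09%).

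Markers of other cell types were checked over whole lists. Of 6 tested fibroblast markers 2 fell and 0 rose, PDGFRB (14.6 and 16.1 against 47.9 and 43.4 CPM, -1.57 ± 0.11) and COL3A1 (-0.81), and the summed level of the 7 markers was 56.7 and 51.6 TPM in Vector and 57.98 and 58.9 TPM in Vehicle. Of 4 tested endothelial markers 2 fell, CDH5, the gene of VE-cadherin (0.715 and 0.853 against 6.92 and 6.55 CPM, -3.09 ± 0.24), and VWF (-2.38). The summed level of the 5 endothelial markers was 0.906 and 0.7403 TPM in Vector and 5.37 and 5.17 TPM in Vehicle, with KDR at 0 in 3 libraries. CDH5 made up most of that sum. Among 4 tested white blood cell markers CD68, a lysosomal protein, rose (16.3 and 14.4 against 7.202 and 8.55 CPM, 0.96 ± 0.16), while CD3E was at 0 in every library, PTPRC was under 0.2 TPM and the summed level was 29.4 and 23.8 TPM against 13.6 and 16.9 TPM. CD68 was the only 1 of the 4 tested markers with a log2 fold change above 0, and their median was -0.12. In the list of kidney line and neural markers 2 were tested, of which 1 was called higher and 0 lower, with PAX2 at 0. TUBB3, a tubulin, rose to 236 and 181 from 79.9 and 84.2 CPM (1.35 ± 0.14). It was the only 1 of the 2 with a log2 fold change above 0, and their median was 0.37. In bulk samples a smaller share of cells with a gene and less RNA of it per cell cannot be told apart.

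Cell cycle, ribosome and respiration genes had few calls. Of 50 DNA replication genes 0 rose and 1 fell, CDT1, a licensing factor (125 and 104 against 259 and 258 CPM, -1.17 ± 0.11). Only 14 of these 50 had a log2 fold change above 0, the median was -0.12 and 17 had an unadjusted p under 0.05 by edgeR. Of 50 mitosis genes 0 rose and 0 fell by edgeR, with 0 calls by DESeq2 as well. The median of the mitosis genes was -0.05, with 15 members at an unadjusted p under 0.05 by edgeR. MKI67, a proliferation marker, was at 376 and 469.9 against 403 and 409 CPM (0.06 ± 0.12, adjusted p = 0.729), and the sign of its small change turned without Vector 3. Among 78 cytosolic ribosomal protein genes RPL13 was the only call, at 859 and 800.3 against 2105 and 1456 CPM (-1.1 ± 0.17), with the Vehicle pair apart. The median of these 78 genes was -0.14, with -0.15 in Vector 2 and -0.13 in Vector 3. Only 6 of the 78 had a log2 fold change above 0, and 36 had an unadjusted p under 0.05 by edgeR. Of 62 nuclear-encoded respiration genes NDUFB2 rose (0.72) and ATP5F1D fell (-0.78), the latter not called after GC correction (adjusted p = 0.0592). In this list 35 genes had a log2 fold change above 0, the median was 0.05 and 26 had an unadjusted p under 0.05 by edgeR. Of 19 antigen presentation genes edgeR and DESeq2 called 0, and 8 had an unadjusted p under 0.05. Mitochondrially encoded mRNAs were not analysed here.

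Interferon, NF-κB and NRF2 targets had calls in both directions. The shares called were 15.4% of interferon-stimulated genes, 23.1% of NF-κB targets and 23.7% of NRF2 targets, beside 15.97% of all tested genes. Of 39 interferon-stimulated genes 2 rose, OASL (3.62 and 3.41 against 0.483 and 1.05 CPM, 2.17 ± 0.39) and ISG20 (0.82), and 4 fell: GBP2 (0.191 and 0.213 against 2.57 and 2.91 CPM, -3.73 ± 0.35), IFI6 (-1.62), IFIT1 (-1.1) and IFI35 (-0.83). Of the classical members ISG15 and MX1 did not pass the test (-0.08 and -0.39). Among 26 NF-κB targets and cytokines 2 rose and 4 fell, although 17 had a log2 fold change above 0 and the median was 0.44. Those that fell included C3, the complement component (147 and 208 against 467 and 455 CPM, -1.38 ± 0.16), LCN2, an iron-binding lipocalin (-2.78), and IL18 (-0.97). TRAF1 rose (2.86 and 1.19 against 0.603 and 0.4001 CPM, 2.0 ± 0.54). Of 38 NRF2 and glutathione genes 4 rose, including SLC7A11 and HMOX1, and 5 fell, including AKR1C1, an aldo-keto reductase (0.763 and 2.304 against 10.3 and 7.82 CPM, -2.54 ± 0.46), and ALDH3A1 (-1.12). NQO1, a classical target, was at 317 and 358 against 296 and 287 CPM (adjusted p = 0.109). Of 57 lysosomal genes, with a share called of 15.8%, 5 rose, among them NEU1 (0.97) and CTSL (0.89), and 4 fell, among them CTSF (-0.95) and CTSV (-0.95).

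Further lists gave a handful of calls each. Of 24 YAP and TEAD targets 1 rose and 3 fell, a share of 16.7% beside 15.97% of all tested genes. Among those that fell was IGFBP3, an IGF-binding protein (367 and 198 against 636 and 558 CPM, -1.08 ± 0.28). Of 31 tested core histone genes 2 rose and 2 fell, a share of 12.9%. Of 3 tested metallothioneins edgeR and DESeq2 called 0, with 1 at an unadjusted p under 0.05. In the S100 and annexin list 3 of 22 rose and 3 fell, a share of 27.3%. These included S100A2, a calcium-binding protein (17.7 and 14.2 against 9.94 and 9.64 CPM), and ANXA9. Of 18 genes in the protocadherin list PCDH7, which lies outside the protocadherin clusters, was the single call, at 44.1 and 79.2 against 26.5 and 24.5 CPM (1.28 ± 0.27). Because the libraries do not keep the strand, reads of genes that overlap on opposite strands cannot be told apart, which also concerns SLC7A11, STARD4, BHLHE41, LOX, FBXL5, KRT23, H19, EPB41L4A-AS1 and RAET1E-AS1.

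The counts of several lists moved by more than 1.5 times when 1 Vector library was left out. Without Vector 2 there were 6 higher and 6 lower core histone genes, 5 and 3 YAP and TEAD targets, 10 and 5 lysosomal genes, 4 and 6 interferon-stimulated genes, 4 and 7 Notch genes and 3 and 4 Wnt genes. The same setting gave 5 and 0 polyamine genes, 1 and 2 replication genes, 1 and 2 ribosomal protein genes and 1 and 4 respiration genes. Without Vector 3 there were 8 higher and 4 lower NF-κB targets, 4 and 3 core histone genes, 3 and 0 chromatin enzymes, 1 and 5 classical markers and 0 and 3 replication genes. Without Vehicle 1 no list kept more than 1 higher gene and none a lower one, and without Vehicle 2 none kept more than 3 higher and 2 lower genes.

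Several of the most abundant genes differed between the controls. Besides LDHA, ALDOA and HSP90AA1, TUBA1B, a tubulin, rose to 2146 and 2436 from 1201 and 1247 CPM (0.90 ± 0.08). H19, an imprinted noncoding RNA, was at 1264 and 916 CPM in Vector and 3376 and 3147 CPM in Vehicle (-1.58 ± 0.16, adjusted p = 0.00781), that is 1313 and 917 against 3362 and 3203 TPM. EIF4B, a translation initiation factor, fell to 791 and 875 from 1371 and 1429 CPM (-0.75 ± 0.08). JUP, the junction protein plakoglobin, had 749.9 and 929.8 against 1348 and 1229.6 CPM (-0.62 ± 0.12) and was not called after GC correction (adjusted p = 0.139). Nuclear ribosomal RNA loci took between 0.0152% and 0.146% of the counts, and the copies cannot be told apart: RNA18SN3 had 18.6 and 0.6401 CPM in Vector and 0.201 and 0.764 CPM in Vehicle, and RNA18SN2 103 and 8.58 against 14.97 and 57.5 CPM, neither of which passed the test. These loci, like EGR1, FOSB and CCN2, are the genes of at least 5 CPM at which the Vector libraries lay farthest apart. Among snoRNA host genes EPB41L4A-AS1 fell to 20.03 and 16.4 from 53.2 and 55.2 CPM (-1.58 ± 0.13), 1 of 3 that fell of 18 tested. With 1 that rose, the share called was 22.2%, beside 15.97% of all tested genes.

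The direction of a change varied with the GC content of the longest GENCODE transcript, which was available for 14593 tested genes (91.1%). With genes split into 5 equal bins, in the bin of lowest GC content (median 38.4%) 9.80% of genes were higher in Vector and 2.67% lower, and in the bin of highest GC content (median 61.9%) 2.67% were higher and 23.1% lower. Across genes, Spearman's rho of the log2 fold change and GC content was -0.32. Within the Vector pair the log2 ratio of Vector 3 to Vector 2 had a rho of -0.25 with GC content, and within the Vehicle pair that of Vehicle 1 to Vehicle 2 a rho of 0.22. Genes share a library here and are not independent replicates. With an offset for GC content in each library, 844 genes were higher and 1256 lower, 602 and 1112 of them also called without it (of 891 and 1454 such calls with a GC value). The shares in the bin of highest GC content then were 9.08% higher and 12.5% lower. Besides the losses given with their genes, the calls of CHORDC1, CLOCK, DERL3, DNAJB9, EGFR, GARS1, HSP90B1, HSPD1, HSPE1, MDM2, NR1D2 and XBP1 were lost, and CZ1P-ASNS, LOC105376123, LOC112268186 and LOC112694756 had no GC value. The medians of the ATF4, cholesterol and glycolysis lists after this correction were 0.77, 0.61 and 0.59. The part of GC content or of library preparation in the remaining calls was not tested.

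**Figure D3:**
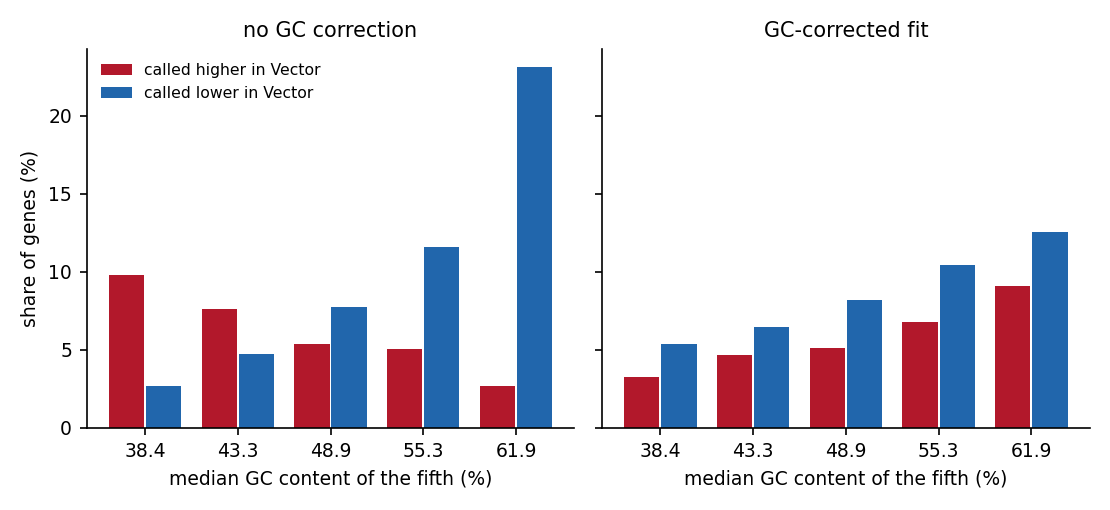
Share of genes (%) called higher (red) and lower (blue) in Vector in each of 5 equal bins of transcript GC content, labelled by the bin's median GC content, without (left) and with (right) correction for GC content. Without correction the share of lower genes rises from 2.67% to 23.1%, with correction from 5.38% to 12.5%.

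Gene length, type and position were described in the same way. In the bin of the shortest genes (median 1295 bases) 4.15% were higher and 13.9% lower, and in the bin of the longest genes (median 9689 bases) 7.21% and 6.55%. The median GC content of these bins was 53.2% and 44.6%. After GC correction 5.84% of the shortest genes were higher and 10.95% lower, against 4.72% and 6.50% of the longest. The order of the higher shares was thus not kept. Of 2256 tested long noncoding RNAs 2.53% were higher and 14.9% lower, against 6.43% and 9.48% of 13211 protein-coding genes. Chromosome 19 had the lowest median log2 fold change of the autosomes (-0.15, 1103 genes, 16.2% lower), followed by chromosome 22 (-0.11), and chromosome 4 had the highest (0.11, 510 genes). The median GC content of the transcripts was 58.5% on chromosome 19 and 42.3% on chromosome 4.

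The treated groups were compared with each other by the same fit, EBF2-OE as the counterpart of Vector and GSK-LSD1 as the counterpart of Vehicle, on 4 other libraries, so that no library is shared. This difference holds the treatments as well as whatever sets the control states apart, and is a description. Between EBF2-OE and GSK-LSD1, 301 genes were higher and 803 lower, 6.94% of the 15918 tested. Of the 2505 genes called between Vector and Vehicle and tested in both comparisons, 2406 (96.05%) had the same sign in EBF2-OE against GSK-LSD1, beside 80.5% of all 15632 genes tested in both. In the same direction 736 genes were called in both comparisons, which is 29.4% of the calls between the controls and 68.4% of those between the treated groups, and 5 were called in opposite directions. HSPA5 was again higher (0.87 ± 0.09, adjusted p = 0.0157), as were ASNS (1.2), ERRFI1 (1.45), FOSL1 (1.71) and KMT2D (0.82), and TJP3 (-4.19), ALPG (-2.96) and KLLN (-1.43, log2 fold changes) were again lower. The median of the ATF4 list was 0.46 with 11 higher and 0 lower, and that of the glycolysis list 0.45 with 5 and 0.

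Sterol genes and H19 had other values in this second comparison. The cholesterol list had a median of -0.08 in EBF2-OE against GSK-LSD1, with 0 members higher and 3 lower, where 16 were higher between the controls. HMGCS1 was at 245 and 407 CPM in EBF2-OE and 329 and 297 CPM in GSK-LSD1 (0.06 ± 0.23, adjusted p = 0.882), and SCD at 1643 and 1679 against 1674 and 1699.8 CPM (-0.02 ± 0.08). ACSL1 and ACSS2 were called lower there (-0.95 and -0.69) and higher in Vector than in Vehicle. H19 had 1249 and 1349.8 against 1183 and 1171 CPM (0.14 ± 0.09). In a test of the difference between both comparisons, edgeR called 0 of 16558 genes after adjustment for multiple tests. Before adjustment, 1268 genes lay under 0.05. The smallest adjusted p was 0.0514 for SCD, ACSL1 and ACSS2 (differences of 1.07, 1.68 and 1.4 on the log2 scale), followed by 0.0518 for H19 (-1.72).

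**Figure D4:**
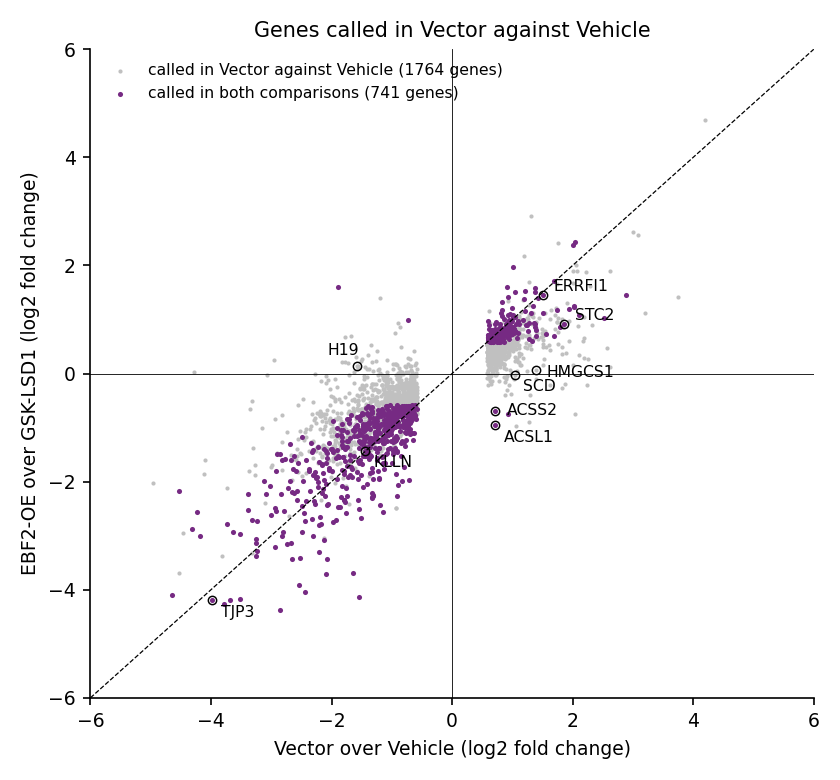
Log2 fold change of Vector over Vehicle (x axis) and of EBF2-OE over GSK-LSD1 (y axis) for the 2505 genes called between the controls and tested in both comparisons, with the genes called in both (736 in the same direction and 5 in opposite directions) in purple and the dashed line marking equal changes. Most points lie in the lower left and upper right quadrants, whereas SCD, HMGCS1 and H19 lie near 0 on the y axis and ACSS2 and ACSL1 below it.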

How the data were processed

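Polyadenylated RNA of SW1990 cells was sequenced from unstranded libraries. The authors aligned reads to hg38 with HISAT2 and counted them per gene with HTSeq; the deposited table holds raw counts for 38637 genes, TPM values and gene lengths (a length column, not a measurement of a sample). Here the counts of Vector 2, Vector 3, Vehicle 1 and Vehicle 2 (20828541 to 27054876 per library) were fitted with edgeR 4.0.16 in R 4.3.3 (TMM scaling, filterByExpr with a minimum count of 10, quasi-likelihood test, Benjamini-Hochberg adjustment). A call needed an adjusted p under 0.05 and a fold change above 1.5. Deposited TPM served for marker sums and levels of single genes. Counts limit the precision, and counting intervals (95%, exact) and the floor of 3 counts cover counting error only. The fit was tested on simulated data.

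Members and gene lists were chosen with earlier results of these data known. Genes were named by rule: the 10 largest calls in each direction with a mean of at least 5 CPM, no overlap and both Vector libraries past 1.5-fold; up to 4 of the largest calls of each list; EBF2, KLLN, KMT2D, KDM1A, MKI67, MYC and CDKN1A; up to 5 genes in each direction with at most 3 counts in both libraries of 1 group; the 5 most abundant calls in each direction; and the 5 genes whose Vector libraries lie farthest apart. Other list members were named after their values were seen, as were ACSL1, ACSS2, SCD and H19 in the second comparison. Alternatives were DESeq2 1.42.0, limma 3.58.1 (voom), other size factors and filters, a fit over all 8 libraries, a test against the fold limit and leaving out each library. The GC correction and the test of the difference between both comparisons were added after the data were seen. Promoter windows came from RefSeq (GRCh38.p14, 27305 windows). Some genes, and 1 list, are not reported here.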

Additional observations from a re-analysis of the deposited data

How the results depend on the processing

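Calls between Vector and Vehicle, 927 higher and 1631 lower, stayed within 1.5 times these numbers with DESeq2 (910 and 1557), limma-voom (915 and 1679), DESeq2 size factors, robust estimation, other count filters, all 8 libraries in 1 fit, and GC correction (844 and 1256). A test against the fold change of 1.5 gave 52 higher and 211 lower genes, and without a fold limit 2172 were higher. Leaving out 1 library at a time gave 2 to 1581 higher and 10 to 2678 lower genes; the lone library left in a group is then assumed to vary like the other group, and without a Vehicle library the spread comes from the Vector pair alone. Of 148 named genes that were called, 144 lost the call without Vehicle 1 and 102 without Vehicle 2, against 5 without Vector 2 and 7 without Vector 3. CCN2 changed from 2.04 to -0.75 (log2) without Vector 3, with a range of -0.75 to 2.93 over the left-out libraries. MKI67 changed from 0.06 to -0.0066 with upper-quartile scaling and -0.11 without Vector 3 (range -0.11 to 0.21). RNA18SN2 changed from 0.62 to -0.065 with limma-voom, -2.08 without Vector 2 and -0.04 without Vehicle 1 (range -2.08 to 1.90). The cause was not tested. No paired analysis was possible because the control groups share fewer than 2 replicate numbers. With 2 libraries a group, changes of weakly expressed genes are limited by counting and by the distance between the Vector libraries.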
